A study of Rattus norvegicus with 86 samples.

Results

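Ca3 (ENSRNOG00000010079) encodes carbonic anhydrase III, and its level was examined as 1 gene of the 17250 in the table, over the 80 kept rats of 86 with a prelimbic cortex sample. The gene was selected on its measured log2 values, because they were high in a few rats, so its spread over rats is given as a description with no test. The rats were Heterogeneous Stock (HS) rats, an outbred population founded from 8 inbred strains, naive to behavioural and drug treatment and housed in groups. They comprised 40 males and 40 females in 5 rat batches, with 1 poly(A) RNA library per rat from both sides of the dissected prelimbic cortex. Batch 2 held 14 rats (3 females, 11 males), batch 3 held 23 (13 females, 10 males), batch 4 held 26 (15 females, 11 males), batch 5 held 1 female and batch 6 held 16 (8 of each sex). The labels say only that these are rat batches. No treatment or control group was part of the design, and the dissection took whole tissue with all of its cell types. The study genotyped the rats to relate expression to genotype. Genotypes were not used here, so whether the level of Ca3 goes with genotype was not tested.

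Carbonic anhydrases interconvert carbon dioxide and bicarbonate with the release or uptake of a proton. Carbonic anhydrase III is a cytosolic member with low catalytic activity, best known as an abundant protein of slow skeletal muscle, adipose tissue and liver, and its thiol groups can carry glutathione. In the brain the better known cytosolic member is carbonic anhydrase II, encoded by Car2, which is abundant in oligodendrocytes, the myelin-forming cells.

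Expression is given as log2(adjusted count + 1), where the adjusted count is the authors' read estimate after upper quartile scaling of the libraries. Summed over genes, they came to 16957388 to 20613396 per library, and each library listed 349 to 977 genes at 0, with a median of 505.5. Markers of the main cortical cells that could be matched were read in every library. Neurod6, a transcription factor of excitatory neurons, lay between 10.74 and 11.50, and Slc32a1, the vesicular GABA transporter, lay between 9.55 and 10.69.

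Ca3 was low in 72 rats, at adjusted counts of 0 to 23 with a median of 8, and high in 8 rats, at 221 to 427 with a median of 309.5, with no rat between. Over the 80 rats the lowest Ca3 value was 0.00, the median 3.25 and the highest 8.74, which are adjusted counts of 0, 8.5 and 427. Sorted by level, the rats were separated by 1 wide gap of 3.21 log2 units, from 4.58 to 7.79. The rat just below it had an adjusted count of 23 and the rat just above it 221, a ratio of 9.61. The next widest gap between neighbouring rats was 1.00, at the bottom of the range between adjusted counts of 0 and 1. Gaps at least as wide with 5 or more rats on each side were found in 50 of 17163 distinct genes (0.291%). The SD of Ca3 was 1.75, and 217 distinct genes had a larger one.

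The 8 rats above the gap came from all 5 batches and both sexes. The lowest was the female of batch 5, at 7.79 (adjusted count 221). In batch 2, male 37 had 7.88 (234) and female 14 had 8.73 (425). Batch 3 held 1 such rat, female 8, at 8.08 (269). In batch 4, female 2 had 8.18 (290) and male 15 had 8.74 (427), the highest value of all. In batch 6, male 32 had 8.37 (329) and male 29 had 8.40 (337). The 8 rats lay close to each other, with the highest adjusted count 1.93 times the lowest and a coefficient of variation of 24.9%. By sex they were 4 of 40 males and 4 of 40 females. By batch they were 2 of 14 in batch 2, 1 of 23 in batch 3, 2 of 26 in batch 4, the only rat of batch 5 and 2 of 16 in batch 6.

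**Figure D1:**
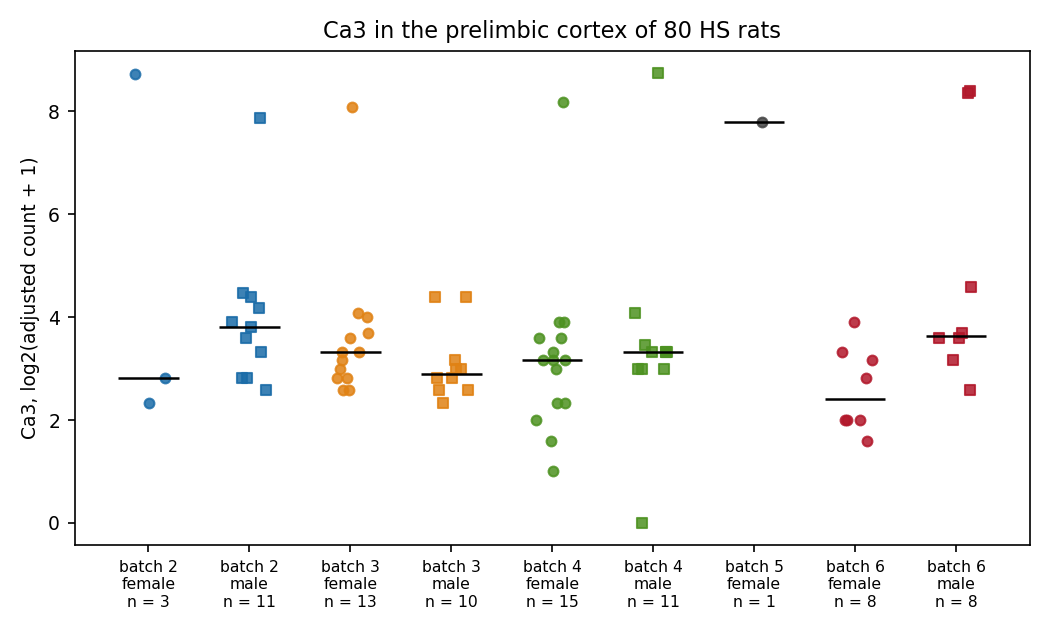
Ca3 in each rat as log2(adjusted count + 1) on the y axis, by batch and sex on the x axis, with females as circles, males as squares and a line at each group's median. The 8 rats from 7.79 to 8.74 stand above the 72 rats from 0.00 to 4.58 and are spread over batches and sexes.

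In the 72 rats below the gap Ca3 rested on few reads. Of these rats, 18 had an adjusted count of 5 or less. Male 17 of batch 4 had an adjusted count of 0 and female 33 of batch 4 had 1. The library of male 17 listed 822 genes at 0 and that of female 33 listed 457, beside a median of 505.5. The variance of the adjusted counts among the 72 rats was 2.79 times their mean of 8.81. The libraries of the 8 rats above the gap listed 415 to 733 genes at 0, within the range of all libraries.

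No difference of Ca3 between the sexes passed the test. Males ranged from 0.00 to 8.74 with a median of 3.32, and females from 1.00 to 8.73 with a median of 3.17. The male minus female difference was 0.33 ± 0.39 (SE, 40 males and 40 females) with batch as a covariate, at an adjusted p of 0.907 (limma with Benjamini-Hochberg adjustment over all genes). The same test called 63 of 17163 genes (0.367%). The ranges of the sexes also overlapped below the gap, where males had 0.00 to 4.58 and females 1.00 to 4.09. There the difference was 0.30 ± 0.20 (SE), with a limma adjusted p of 0.823. The male minus female difference of Ca3 in batches 2, 3, 4 and 6 was -0.65, -0.51, 0.29 and 2.15. Both rats above the gap in batch 6 were males. With the rats above the gap left out it was 1.02, -0.14, 0.12 and 0.94 in the same order. A test of whether the sex difference varied between batches gave Ca3 an unadjusted p of 0.0645 and called 0 genes in limma, with 409 genes at an unadjusted p under 0.05.

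Ca3 did not pass the threshold for a difference between batches either. Batches 2, 3, 4 and 6 had medians of 3.70, 3.00, 3.25 and 3.25, and the single rat of batch 5 had 7.79. All batches with more than 1 rat overlapped. The moderated F-test in limma, with sex as a covariate, gave an adjusted p of 0.118 for Ca3, in a table where batch was called for 59.3% of genes. Without the rat of batch 5 the adjusted p was 0.710, and without male 15 of batch 4 it was 0.0496.

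Few other genes passed the test for following Ca3 across rats. Each gene was fitted on the log2 level of Ca3 with batch and sex as covariates, and the slope is the log2 change of that gene per log2 unit of Ca3. Of 17162 other distinct genes, 2 rose with Ca3 (0.0117%) at a limma adjusted p under 0.05 and 0 fell. At an unadjusted p under 0.05 there were 952 genes with a positive slope and 628 with a negative one, and the median slope of all genes was 0.0013. The batch 5 rat is matched exactly by its own batch term, so it adds nothing to any slope.

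The genes that passed have no name in the tables used. ENSRNOG00000021472 ranged from 6.49 to 8.43 over all rats and rose by 0.12 ± 0.024 (SE) per log2 unit of Ca3, with an adjusted p of 0.0430 in limma. ENSRNOG00000023338 ranged from 9.63 to 10.80 and rose by 0.06 ± 0.012 (SE), with an adjusted p of 0.0442 in limma. Both slopes were positive within each of the 4 batches that could be fitted, which are the batches behind the pooled slope that chose these genes. For ENSRNOG00000021472 they were 0.08, 0.12, 0.12 and 0.17 in batches 2, 3, 4 and 6. Leaving out 1 rat at a time, ENSRNOG00000021472 was called in 59 of 80 fits and ENSRNOG00000023338 in 44, and the number of genes called ran from 0 to 5. Neither gene had the gap of Ca3. Of the 8 rats, 7 had ENSRNOG00000021472 between 7.83 and 8.02 and the rat of batch 5 had 7.24, all inside the range of the other 72 rats. Both calls were near the threshold. Without batch 6 neither held in limma, with slopes of 0.11 and 0.05 and adjusted p of 0.846 and 0.866.

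**Figure D2:**
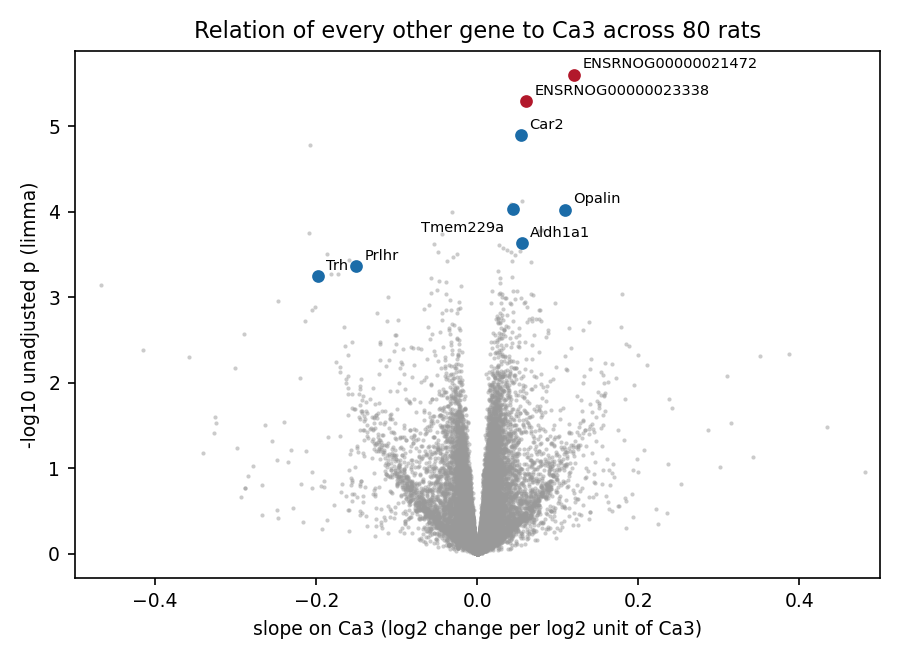
Slope of each other gene on Ca3 (x axis, log2 change per log2 unit of Ca3) against the -log10 of its unadjusted limma p (y axis), over 80 rats with batch and sex as covariates. The 2 genes with an adjusted p under 0.05 are red, and 6 other named genes, Car2 and Opalin among them, are blue.

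The named gene with the smallest p was Car2, which encodes carbonic anhydrase II and is the gene next to Ca3 in the RefSeq annotation of GRCr8. Its slope on Ca3 was 0.05 ± 0.012 (SE, 80 rats) and the limma adjusted p was 0.0723, so it did not pass the threshold. The slope, for which Car2 was picked over the same batches, was positive in 4 of 4 batches, at 0.03, 0.06, 0.06 and 0.06 in batches 2, 3, 4 and 6. Among genes with a name, Car2 also had a pattern most like that of Ca3, with a Spearman rho of 0.481 between the residuals on batch and sex over the 80 rats. Over a step as wide as the gap in Ca3, the slope of Car2 amounts to 0.18 log2 units.

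In the 8 rats Car2 was 9.70 in the female of batch 5, 9.999 in male 37 and 10.21 in female 14 of batch 2, and 10.23 in female 8 of batch 3. It was 9.97 in female 2 and 10.13 in male 15 of batch 4. In batch 6 it was 9.96 in male 32, and male 29 had a value between those of male 37 and male 15. The other 72 rats had Car2 between 9.38 and 10.50, so all 8 values lay inside their range.

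The other genes next to Ca3 and the other carbonic anhydrases are too few to set against the 0.0117% of all genes called. Of 30 neighbouring genes in the GRCr8 order, 15 on each side, 2 could be matched to an identifier of the table, Car2 and Lrrcc1, the gene of a centrosomal coiled-coil protein. Lrrcc1 had a slope of 0.03 ± 0.018 (SE) and a limma adjusted p of 0.588. Car1 and Car13, the nearest genes on the other side, could not be matched by name. Of 15 other carbonic anhydrases sought, 4 could be matched, of which 0 were called, and their median slope was 0.0022 beside 0.0013 over all genes. Car10 and Ca11, members of the family without catalytic activity, had slopes of 0.02 and -0.01, with limma adjusted p of 0.726 and 0.778. Ca12, a membrane-bound member, had a slope of -0.04, with a limma adjusted p of 0.580.

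**Figure D3:**
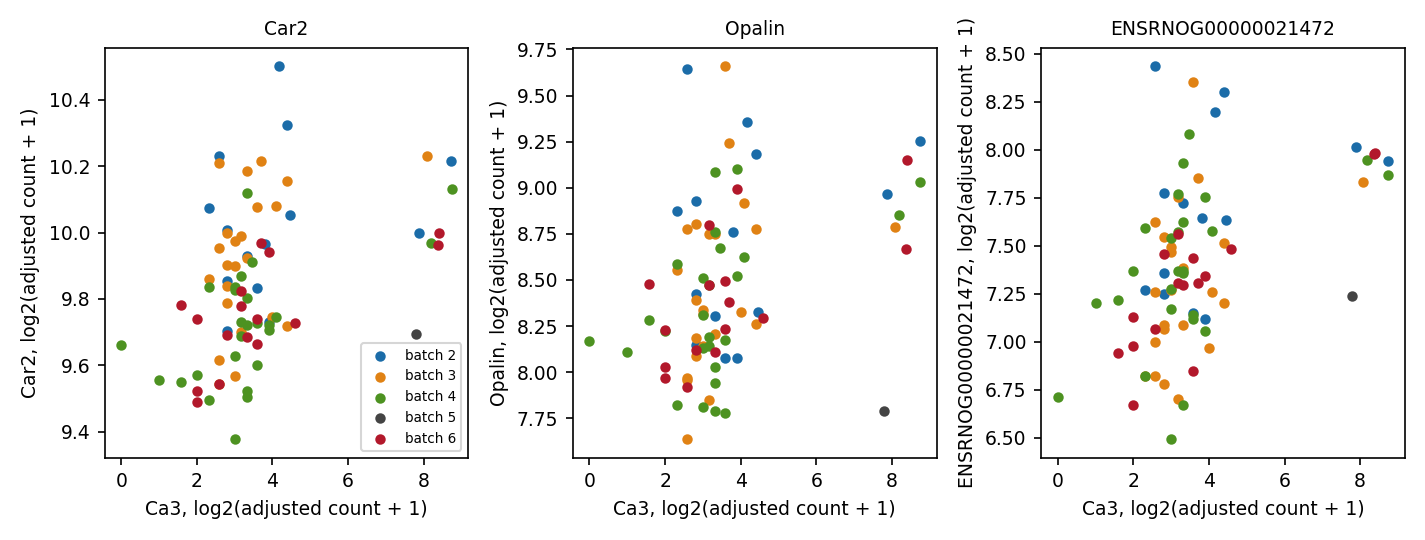
Car2, Opalin and ENSRNOG00000021472 (y axes) against Ca3 (x axes), all as log2(adjusted count + 1), with 1 point per rat coloured by batch. In each panel the 8 rats with Ca3 from 7.79 to 8.74 lie inside the vertical range of the 72 others.

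Opalin, a myelin membrane protein and the only oligodendrocyte marker of 7 sought that could be matched, had a slope of 0.11 ± 0.027 (SE) and a limma adjusted p of 0.191. It ranged from 7.64 to 9.66 over all rats and its slopes were 0.07, 0.11, 0.11 and 0.13 in batches 2, 3, 4 and 6. Of the 8 rats, the female of batch 5 had the lowest Opalin, at 7.79, and female 14 of batch 2 the highest, at 9.26. Its rho with Ca3 over residuals was 0.441. Gatm, which makes the creatine precursor guanidinoacetate, had a slope of 0.03 and a rho of 0.396. Tmem88b, a transmembrane protein, had a slope of 0.10 and a rho of 0.380. Aldh1a1, a retinaldehyde dehydrogenase, had a slope of 0.06 and a rho of 0.392. Lpar1, a lysophosphatidic acid receptor, had a slope of 0.07. None of these passed the threshold, with limma adjusted p from 0.191 to 0.308. With Opalin as a covariate the slope of ENSRNOG00000021472 was 0.05 with a limma adjusted p of 0.332, and 0 genes passed. This fit was added after the values were seen, and 0 genes also passed with no covariates or with 20 principal components. In bulk tissue, more cells of a type and more RNA per cell cannot be told apart. Whether oligodendrocyte content has a part in these slopes was not tested.

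The remaining named genes with positive slopes were Tmem229a, Add3, Etv1, Rundc3b, Cwf19l2 and Trim21. Tmem229a, a transmembrane protein, had a slope of 0.04 and was higher in 3 of the 8 rats than in any of the 72, while the other 5 lay in the common range. Add3, the cytoskeletal protein gamma-adducin, had a slope of 0.03 and was higher in 4 of the 8 rats than in any of the 72. Its values in those rats were 11.594, 11.62, 11.73 and 11.74, beside at most 11.591 in the 72. Male 29 and male 32 of batch 6 and female 2 and male 15 of batch 4 were these rats. Neither Tmem229a nor Add3 passed the threshold, with limma adjusted p of 0.191 and 0.231. Both were picked for slopes over rats that include these 8, so the values are a description. How many of all genes had as many rats above the 72 was not counted. Among the 72 rats the slopes of Tmem229a and Add3 were 0.03 ± 0.023 (SE) and 0.0007 ± 0.016 (SE). Etv1, a transcription factor of the ETS family, had a slope of 0.05, with a limma adjusted p of 0.231.

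Named genes with negative slopes were Ttc4, Prlhr, Trh, Nop9 and Josd1. Trh, the precursor of thyrotropin-releasing hormone, had the steepest of these slopes, at -0.20, with a limma adjusted p of 0.277. It was low in many rats, from 0.00 to 4.64, and listed at 0 in 3 rats, male 29 and male 32 of batch 6 above the gap and male 19 of batch 3 below it. Within batches its slope on Ca3 was -0.14, -0.35, 0.01 and -0.59 in batches 2, 3, 4 and 6, so it did not keep 1 direction. Prlhr, the receptor of prolactin-releasing peptide, had a slope of -0.15, and -0.03, -0.01, -0.22 and -0.24 in the same batches. The unnamed gene with the smallest p for a negative slope, ENSRNOG00000054506, lay between 1.00 and 4.17 and had a slope of -0.21 and a limma adjusted p of 0.0723.

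**Figure D4:**
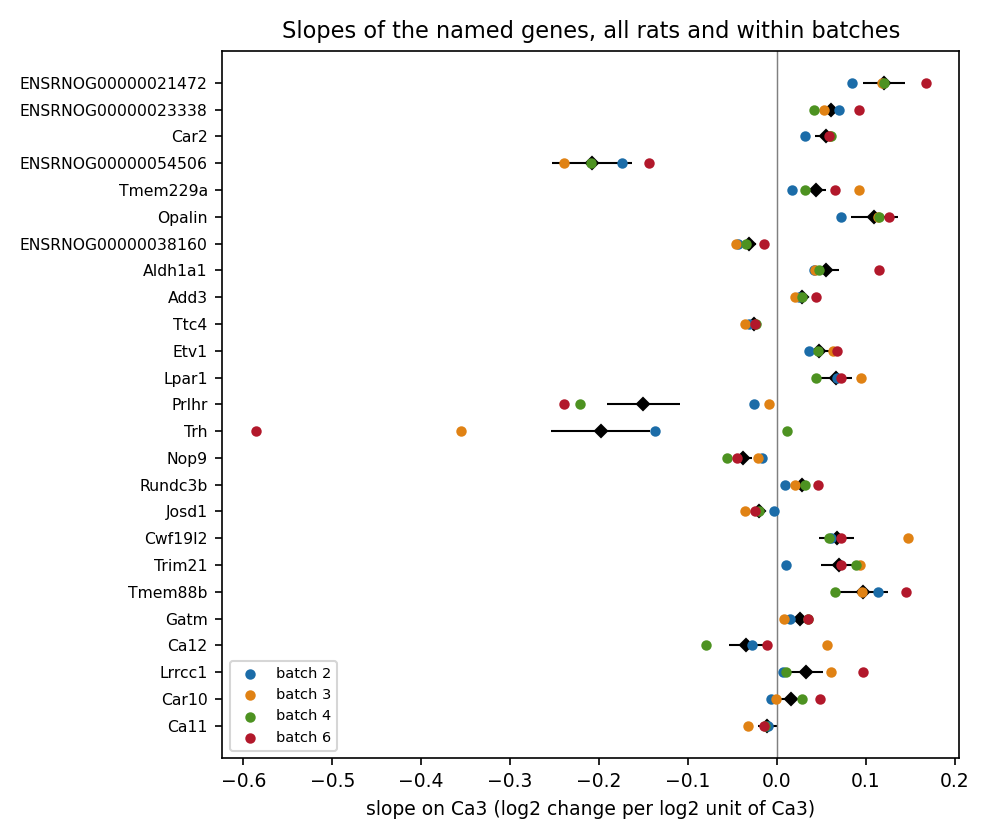
Slopes on Ca3 (x axis, log2 change per log2 unit of Ca3) of 25 genes, with those that have no name shown by identifier. The slope over all rats is a black diamond with a bar of 1 SE on each side. Slopes within batches 2, 3, 4 and 6 are coloured points. Slopes of Trh, Ca12 and Car10 change sign between batches, and most of the other genes were chosen for a small p of the pooled slope, which rests on the same batches.

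Because the rats fall into separate clusters of Ca3, the relations were also computed inside each. Among the 72 rats below the gap 0 genes were called by limma, with 1472 at an unadjusted p under 0.05. There the residuals of Car2 and Ca3 had a Pearson's r of 0.323 and a Spearman's rho of 0.348, and r was 0.351 without the 2 rats farthest from the median of Ca3. Opalin had an r of 0.260 and a rho of 0.292 in the same rats, Gatm 0.315 and 0.355, and ENSRNOG00000021472 0.356 and 0.369. These genes were picked for their relation to Ca3 over rats that include the 72, so the values are a description. In the fit over all genes in these rats, Car2, Gatm and ENSRNOG00000021472 each had a limma adjusted p of 0.570. The number of genes at 0 in a library had an r of -0.02 with Ca3 among the 72. Among the 8 rats above the gap 0 genes were called by limma without covariates, with 1015 at an unadjusted p under 0.05. The r of Car2 was 0.608 and its rho 0.476 there, over 8 rats only and on expression values without covariates. They are not residuals, so they cannot be compared directly with the values of the 72. The female of batch 5 had both the lowest Ca3 (7.79) and the lowest Car2 (9.70) of the 8.

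Within single batches the number of genes that followed Ca3 was 1 in batch 2 (0.00583%), 0 in batch 3 (916 at an unadjusted p under 0.05), 1 in batch 4 (0.00583%) and 1422 in batch 6 (8.29%), by limma with sex as a covariate. In batch 6, 764 genes rose with Ca3 (4.45%) and 658 fell (3.84%). The rats above the gap in batch 6 were male 29 and male 32, and their libraries listed the most genes at 0 of that batch, 661 and 733, beside 349 to 636 in the other 14. They also lay at 1 end of the first principal component of batch 6, which held 13.5% of the variance, at -49.7 and -56.8, while the others lay between -29.6 and 31.5. Without male 29 the count was 33, without male 32 it was 59 and without male 26 it was 935. With the number of genes at 0 as a covariate it was 1. A relation to Ca3 and a difference of these 2 libraries from the rest of batch 6 cannot be told apart.

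**Figure D5:**
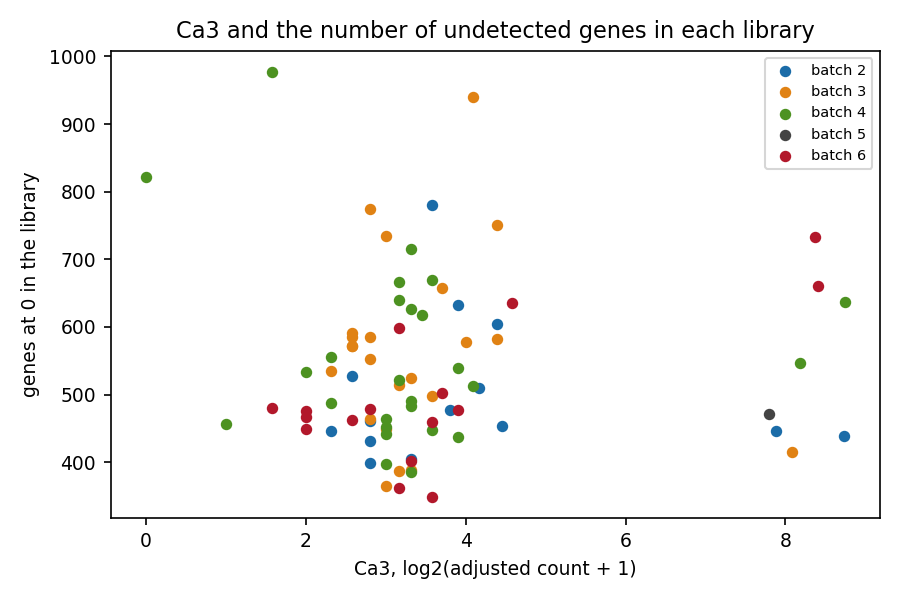
Number of genes at 0 in each library (y axis) against Ca3 as log2(adjusted count + 1) (x axis), with 1 point per rat coloured by batch. The rats of batch 6 above the gap list 661 and 733 genes at 0, while the 6 such rats of other batches list 415 to 637.

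Across all genes, the slope on Ca3 differed between batches for 0 genes in limma, with 1375 at an unadjusted p under 0.05. The smallest adjusted p of any gene was 0.111, and Car2 had 0.899. Among genes with a name, Aldh1a1, Etv1, Prlhr and Trh passed the threshold in the fit of batch 6 alone. Their limma adjusted p there were 0.0190, 0.0299, 0.0462 and 0.00612. The unnamed ENSRNOG00000021472 and ENSRNOG00000023338 also passed there, with limma adjusted p of 0.00887 and 0.0108. In that batch 8.29% of all genes were called, and these genes were picked for their relation to Ca3 over rats that include it.

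Few markers of the tissues in which carbonic anhydrase III is abundant could be matched, and with 0.0117% of all genes called, their lack of a call says little about those tissues. Of 11 skeletal muscle markers, 1 could be matched, the fast myosin heavy chain Myh4, which ranged from 5.58 to 7.10 and had a slope on Ca3 of 0.06 ± 0.022 (SE), with a limma adjusted p of 0.421. Of 8 adipocyte markers, 1 could be matched, the fatty acid binding protein Fabp4, which ranged from 0.00 to 4.52, was at 0 in 6 rats and had a slope of 0.11, with a limma adjusted p of 0.663. Of 4 liver markers 0 could be matched. Hbb, a haemoglobin chain that marks blood, had a slope of -0.06, with a limma adjusted p of 0.737. Dcn, a matrix proteoglycan that marks meninges, had a slope of 0.04, with a limma adjusted p of 0.619. Of the other brain cell types, Neurod6 (excitatory neurons), Slc32a1 and Vip (inhibitory neurons), Aldh1l1 (astrocytes), P2ry12 (microglia) and Rgs5 (mural cells) had slopes from -0.02 to 0.03 and 0 passed. Markers of choroid plexus, endothelium and oligodendrocyte precursors could not be matched.

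Genes that handle the substrates of carbonic anhydrases were described in the same way. Of 24 bicarbonate and proton transport genes, 6 could be matched and 0 passed, beside 0.0117% of all genes, with 4 positive slopes and a median slope of 0.0093 beside 0.0013 over all genes. Slc4a10, a sodium-coupled bicarbonate transporter of neurons, had the smallest adjusted p of these in limma, 0.533, with a slope on Ca3 of 0.02. Of 22 glutathione and antioxidant genes, 3 could be matched and 0 passed, beside the same 0.0117%, so the count sets neither list apart. Catalase (Cat) had a slope of 0.02, glutathione synthetase (Gss) -0.02 and haem oxygenase (Hmox1) -0.03.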

How the data were processed

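Poly(A) RNA of dissected prelimbic cortex was sequenced as single-end reads, 1 library per rat. Per the study's methods, the authors trimmed reads with cutadapt, estimated counts per Ensembl gene with RSEM and scaled them to a common upper quartile with DESeq2. The deposited log2 values are log2(adjusted count + 1). The adjusted counts are whole numbers, so a rounded multiple of the reads is known but not the reads themselves. Of 86 samples, the authors had removed 1 for a low read count, 2 for mismatched genotypes and 3 as expression outliers.

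Genes were fitted with limma 3.58.1 (R 4.3.3, trend in the variance), with Benjamini-Hochberg adjustment over all genes and a threshold of 0.05. Genes with identical values were counted once, which left 17163. Correlations used residuals on batch and sex (scipy 1.17.1), except those among only the rats above the gap. These used the expression values without covariates. Supplementary tables of the study pair 3292 of the identifiers with names (19.1%), and other genes stay unnamed. Gene order came from the RefSeq annotation of GRCr8, another build than that of the files (Rnor_6.0), so no coordinates are given.

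The genes described singly are Ca3, the other matched carbonic anhydrases and neighbours, and the 10 named genes with the smallest p for a positive slope. With them are the 5 named genes with the smallest p for a negative slope and the 5 with the highest rho. At most 2 unnamed identifiers in each direction were also taken. List members given as examples were added to these. The gene, the lists and the rule were chosen with earlier results of these data known. P-values measure the spread between rats, each with 1 library. The fits were run on simulated data with independent noise in each gene and no batch differences. Slopes on Ca3 of 0.5 residual SD per SD of Ca3 were recovered for 45 of 67 genes, and slopes of 1 for 67 of 67. In that run 15 unchanged genes were called. Such data lack the batch differences and the relations between genes of the real libraries, so they cannot show how the fits behave there.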

Additional observations from a re-analysis of the deposited data

How the results depend on the processing

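The count of 2 genes that followed Ca3 was near the threshold. It was also 2 with only genes of mean log2 of 5 or more. The count was 2 without the rat of batch 5 as well, where no slope could change because that rat adds nothing to any slope. It was 0 with a pseudocount of 8, with inverse normal transformation, with libraries recentred on their median, with no covariates, with 20 principal components, without the 2 rats farthest from the median, in only the rats below or only those above the gap, in batch 3, with Ca3 ranked within batches and with no variance trend. It was also 0 in alternatives added after seeing the data, namely without batch 6 and with the number of genes at 0 or Opalin as a covariate. It was 1 in batch 2 and in batch 4 and 1422 in batch 6. Leaving out 1 rat at a time gave 0 to 5 genes, with 2 in 35 of 80 cases and 0 in 21 cases. It gave 5 without male 17 of batch 4, the rat with a Ca3 adjusted count of 0. Why most of these counts fell to 0 was not tested. Single batches and clusters hold fewer rats, and whether this has a part was not tested either.

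For batch 6, leaving out 1 rat gave 33 to 1901 genes, and the number of genes at 0 as a covariate left 1. The sex difference of Ca3 kept its direction and missed the threshold whichever rat was left out, from 0.15 to 0.56, and in 8 other settings. The adjusted p for batch ran from 0.0496 to 0.710 over single rats left out.

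Slopes that changed sign were those of Lrrcc1 (-0.0079), Car10 (-0.0058) and Ca11 (0.0151) with 20 principal components, Car10 (-0.0051) and Ca11 (0.0183) below the gap, ENSRNOG00000038160 (0.108) above it, Car10 (-0.0070) in batch 2, Ca12 (0.0561) and Car10 (-0.0010) in batch 3, and Trh (0.0113) in batch 4. All 33 slopes that lost a call were of ENSRNOG00000021472 and ENSRNOG00000023338, the 2 genes with a call to lose, and 5 others gained one. The 473 that kept direction and call were mostly of genes without a call. Car2 gained the call in 6 of 80 fits that left out 1 rat. No paired analysis was possible because each rat gave 1 library and the replicate numbers follow the order of the samples.

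Below the gap Ca3 rests on 0 to 23 adjusted counts per rat, and the smallest detectable relation there was not tested.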

Other observations

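Among the 72 rats below the gap, the named gene with the smallest p for a slope on Ca3 was Myh3, an embryonic myosin heavy chain of skeletal muscle. It ranged from 3.00 to 6.17 and had a slope of 0.28 ± 0.061 (SE) per log2 unit of Ca3, with a limma adjusted p of 0.198. Txlnb, a muscle taxilin, had a slope of 0.32, Slc16a3, a monocarboxylate transporter, 0.24 and Plppr1, a membrane protein of neurons, 0.13, while Trim72, a muscle membrane repair protein, had -0.36, each with a limma adjusted p of 0.570. These are the 5 named genes with the smallest p there. They were named after their values were seen, and none passed the threshold.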
